A study of Mus musculus with 8 samples.

Results

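The comparison described here set left ventricles that lacked Lin28a in heart muscle against left ventricles with the gene intact, both under pressure overload. It used 4 of the 8 libraries of the series, namely the 2 libraries of cardiac-specific Lin28a knockout mice (Lin28aCko, written cKO below) with transverse aortic constriction (TAC) and the 2 libraries of floxed control littermates (Lin28afl/fl, written floxed) with TAC. The other 4 libraries came from cKO and floxed hearts after a sham operation, 2 of each. TAC is a surgical band around the aortic arch that raises the pressure against which the left ventricle ejects, and TAC hearts were taken 5 days after it. Every gene with at least 1 CPM (counts scaled to a library total of 1000000 reads) in at least 2 of the 8 libraries was a member, which gave 13120 of the 13439 genes listed. Library totals in the comparison were 21871570 and 21526001 reads in floxed TAC hearts and 18128090 and 17353978 reads in cKO TAC hearts. The sources used here do not give the Cre driver, strain, age or sex of the mice, nor whether each library came from a separate animal. The p-values therefore reflect the scatter of these libraries, which may be technical. Lin28a itself was not analysed here, and the genotypes rest on the labels.

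Lin28a is an RNA-binding protein of embryonic and growing cells. It binds precursors of let-7 microRNAs and blocks their maturation, and it also binds many messenger RNAs directly. Mature let-7 microRNAs silence growth genes through sites in their 3′ untranslated regions (UTRs). In an adult heart under pressure overload, myocytes enlarge, switch from fatty acid oxidation and adult contractile isoforms toward a fetal program, and signal to fibroblasts and macrophages, which lay down matrix and remove debris. The title of the series names cardiac hypertrophy under pressure overload as the question.

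The let-7 family is shown first because it is the best known target of Lin28a. In RefSeq (GRCm38.p6), 11 mature mouse names of the let-7 and miR-98 family were found, and 10 of them carry the same seed, bases 2 to 8, printed in capitals. These 4 are examples, and let-7j is the one with another seed.
let-7a: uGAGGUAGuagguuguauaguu
let-7d: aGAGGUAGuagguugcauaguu
let-7g: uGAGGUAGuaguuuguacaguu
let-7j: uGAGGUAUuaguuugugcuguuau
The site that pairs with the common seed and is followed by an A reads CTACCTCA in a 3′ UTR, and is called an 8mer. In the let-7 list 10 genes held it, and 5 of these were lower in cKO TAC hearts. The 4 shown next were picked from the lower ones. Among them Col3a1 is also a collagen gene, and 15 of 18 collagen chains were lower. Each sequence ends in the 8mer (capitals) of the 3′ UTR (GENCODE vM21, GRCm38, strand of the gene).
Igf2bp2 (chr16:22059473-22059500): gaaaaacacacaaataaaagCTACCTCA
Tgfbr1 (chr4:47410823-47410850): tgtttaggaggctggttgttCTACCTCA
Igf1r (chr7:68229105-68229132): cttgtttttcaaacatttatCTACCTCA
Col3a1 (chr1:45349130-45349157): tgtcctcctccctatgttaaCTACCTCA

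Under pressure overload, cKO hearts had lower transcripts of matrix, macrophages, cytoskeleton, endoplasmic reticulum chaperones and ribosomal proteins than floxed hearts. They had higher transcripts of fatty acid oxidation and oxidative phosphorylation, and of 12 of 22 ion channel genes of the action potential and 10 of 21 genes of contraction and calcium handling. By limma on log2(CPM + 1), with a Benjamini-Hochberg adjusted p under 0.05 as the threshold, 3263 of 13120 genes passed (24.9%). Of these, 2162 were lower (16.5%) and 1101 higher (8.39%) in cKO TAC hearts. A difference of more than 2-fold was seen for 861 lower and 235 higher genes, and one of more than 4-fold for 89 lower and 9 higher genes. The smallest log2 difference that passed was 0.305 in size and the median size among called genes was 0.817. By the libraries alone, both cKO TAC values lay below both floxed TAC values in 5277 genes (40.2%) and above them in 3099 (23.6%), 63.8% together. The median over all genes tested was -0.10, with a median standard error of 0.187.

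**Figure D1:**
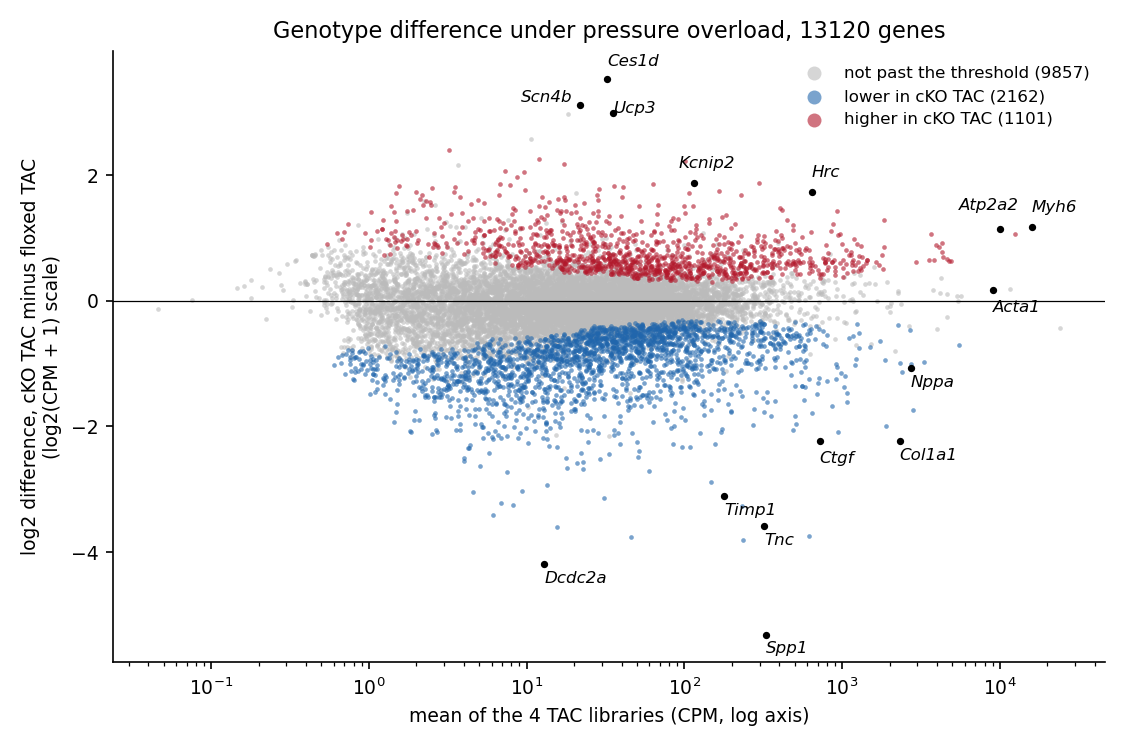
Each point is 1 of 13120 genes, placed by its mean over the 4 TAC libraries (x, CPM, log axis) and its log2 difference, cKO TAC minus floxed TAC (y). Blue points (2162) were lower and red points (1101) higher past the threshold, and the labelled genes reach from Spp1 at -5.31 to Ces1d at 3.54.

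The share of called genes that were higher was 33.7% with each library scaled to its own total. Trimmed-mean (TMM) scaling gave 1770 lower and 1409 higher genes (44.3% higher) and median-ratio (RLE) scaling gave 1752 and 1421 (44.8% higher). Read counts could be recovered from the CPM, and on these edgeR called 1625 lower and 1445 higher genes (47.1% higher) and DESeq2 1624 and 1504 (48.1% higher). Abundant genes passed more often, from 10.8% of genes under 1 CPM to 61.9% of the 118 genes over 1000 CPM. Of these 118, 48 were higher and 25 lower. Of 1642 genes at 100 to 1000 CPM, 415 were lower and 336 higher. The shares over all genes, set beside the lists below, are not matched for level. Leaving out floxed TAC 1 gave 1571 called genes, leaving out floxed TAC 2 gave 1402, and the fits that left out cKO TAC 1 or cKO TAC 2 gave 1400 and 3622. Without floxed TAC 1, floxed TAC 2 or cKO TAC 1, both lower and higher calls over all genes fell. List counts given below for those fits are therefore not to be set against the shares of the full fit. The 2 cKO TAC libraries stood further apart than the 2 floxed TAC libraries, with a median gap of 0.216 against 0.166 on the log2 scale. Of the 2162 lower genes 1876 were lower in cKO TAC 1 than in cKO TAC 2, and of the 1101 higher genes 820 were higher in cKO TAC 1.

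Cell type markers moved with the comparison and are given here once. Summed over 25 macrophage markers, the level was 3018 and 2587 CPM in floxed TAC and 914.9 and 1235 CPM in cKO TAC hearts, against 411.9 to 562.2 CPM in the 4 sham libraries. The sum over 12 cardiomyocyte markers was 71700 and 71550 CPM in floxed TAC and 106900 and 92960 CPM in cKO TAC hearts, against 98430 to 113900 CPM in sham hearts. That sum rests in part on Myh6, Ryr2 and Pln, whose own differences are given below, and it includes Actc1, which did not pass. Endothelial markers hardly separated the genotypes, with 1667 and 1803 against 1404 and 2042 CPM, and 1 of 13 passed (none without floxed TAC 1, floxed TAC 2 or cKO TAC 1 in the lower direction). In bulk tissue, fewer cells of a type and less RNA per cell cannot be told apart, and for any gene group below the part of cell makeup was not tested. The atrial light chain Myl7 was at 2.65 and 0.511 CPM in floxed TAC and 4.03 and 66.2 CPM in cKO TAC hearts, highest in cKO TAC 2. Haemoglobin and other red cell and platelet markers summed to 1298 CPM in cKO TAC 1 and 249.2 CPM in cKO TAC 2.

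**Figure D2:**
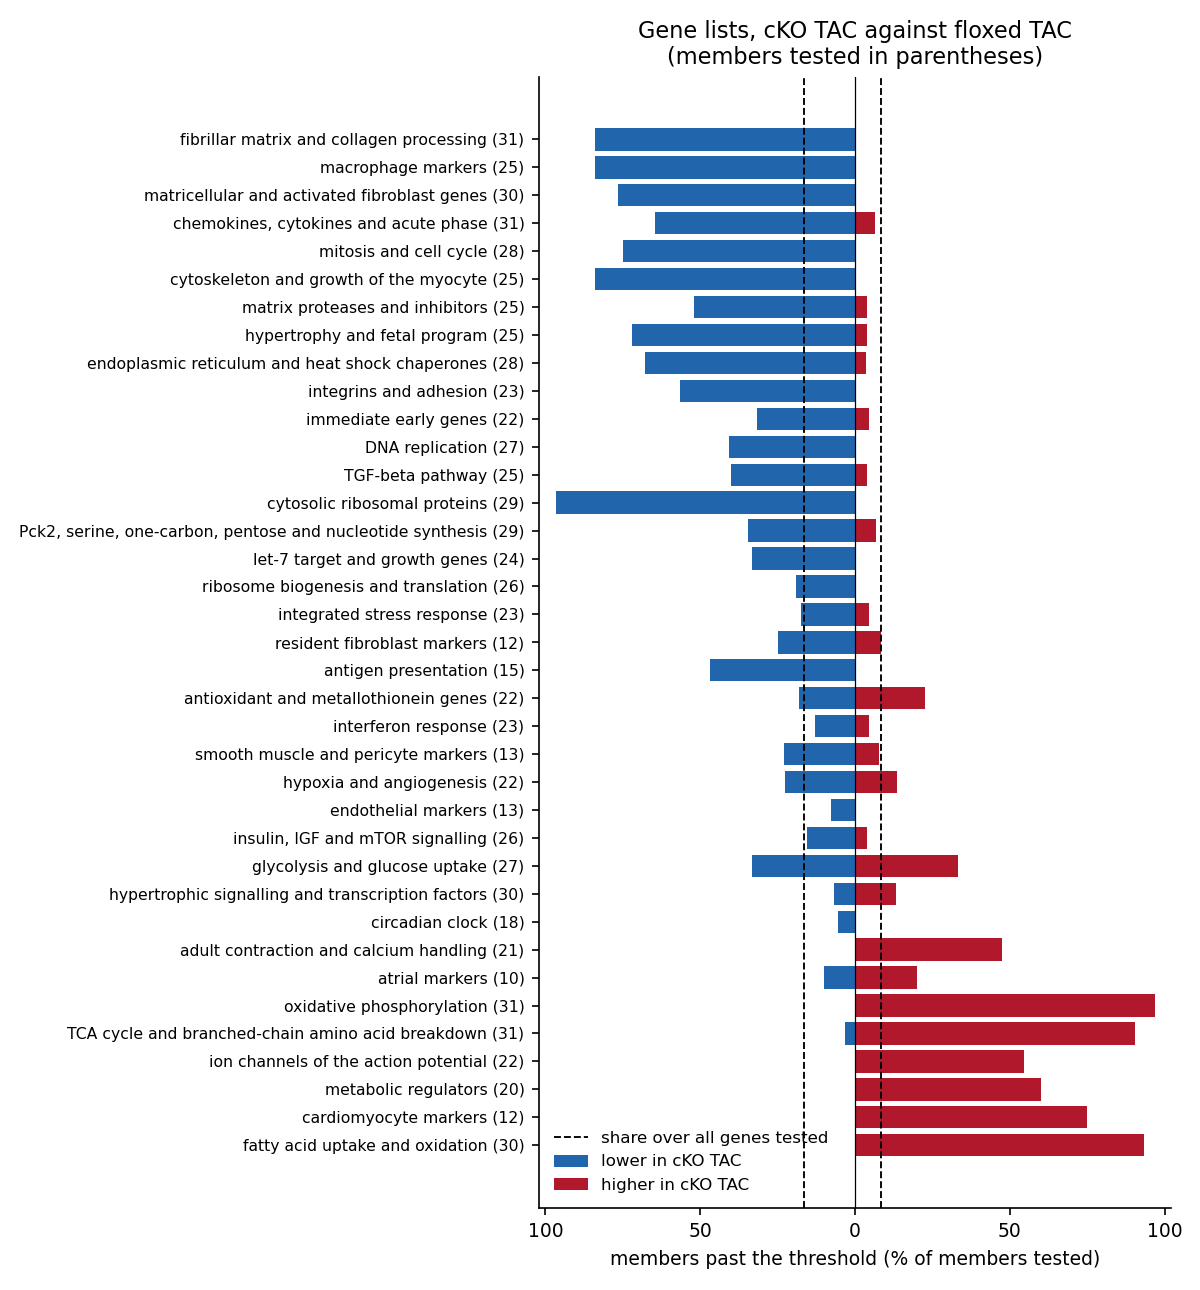
Share of each gene list that was lower (blue, to the left) or higher (red, to the right) in cKO TAC than in floxed TAC hearts, as a percentage of the members tested (number in parentheses), for lists with at least 10 members tested. The dashed lines mark the shares over all genes, 16.5% lower and 8.39% higher, which are not matched to the lists for expression level. Lists at the top have the lowest median log2 difference, and the metabolic and contractile lists stand at the bottom.

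In the full fit most, but not all, listed genes of hypertrophy and the fetal program were lower in cKO TAC hearts. Of 25 hypertrophy and fetal program genes 18 were lower, 1 was higher and 6 did not pass, with a median log2 difference of -0.97. The lower count was 11 without floxed TAC 2 and 12 without cKO TAC 1. The atrial natriuretic peptide gene Nppa (chromosome 4, 148000722 to 148002079), a hormone gene reactivated in stretched ventricles, was at 4033 and 3323 CPM in floxed TAC and 2171 and 1409 CPM in cKO TAC hearts (188 and 189 CPM and 286 and 248 CPM in the sham pairs). It was 2.05-fold lower by the group means (log2 -1.07 ± 0.19, adjusted p = 0.00476), and still above every sham library. Its neighbour Nppb was at 1346 and 1087 against 592 and 615 CPM (log2 -1.002 ± 0.12, adjusted p = 0.00109). The groups did not overlap for either peptide, as for every called gene.

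Nmrk2, a nicotinamide riboside kinase, was at 588 and 252 CPM in floxed TAC and 29.7 and 50.9 CPM in cKO TAC hearts (log2 -3.27 ± 0.35, adjusted p = 0.000931). The LIM protein gene Fhl1, which senses stretch at the sarcomere, was at 1310.5 and 1853 against 666 and 472 CPM (log2 -1.47 ± 0.19, adjusted p = 0.00133). Actn1, a non-muscle alpha-actinin, was at 220.4 and 196 against 48.8 and 69.1 CPM (log2 -1.82 ± 0.16, adjusted p = 0.000632). Both cKO libraries lay below both floxed libraries in each case, as for every gene called lower.

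Skeletal actin (Acta1), the ankyrin repeat gene Ankrd1 and the slow myosin gene Myh7 did not pass. Acta1 was at 5235 and 12442 CPM in floxed TAC and 10643 and 7785 CPM in cKO TAC hearts, with a log2 difference of 0.17 ± 0.43, adjusted p = 0.805. The floxed libraries spanned the cKO libraries, and without floxed TAC 1 the log2 difference was -0.45. Ankrd1 was at 4567 and 5411 against 3880.3 and 4494 CPM (-0.25 ± 0.19, adjusted p = 0.370), and Myh7 at 2216 and 3249 against 1899.9 and 1253 CPM (-0.80 ± 0.29, adjusted p = 0.0723). For these 2 genes the groups did not overlap, as for 63.8% of all genes tested. A set of 30 hypertrophic signalling and transcription factor genes stayed near the background, with 2 lower, 4 higher (1 without floxed TAC 2, 2 without cKO TAC 2) and a median of 0.065. The 4 higher genes all encode receptors, named here after their values were seen, namely Adra1a (1.29) and Adra1b (0.79) for catecholamines, Agtr1a (0.75) for angiotensin and Ednra (1.42) for endothelin. Of these Agtr1a alone kept the call without each TAC library in turn. The 2 lower genes were the serum response cofactor Mkl1 (-1.03) and the calcineurin target Nfatc1 (-0.60), and both lost the call without floxed TAC 2 (adjusted p = 0.0573 and 0.156).

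**Figure D3:**
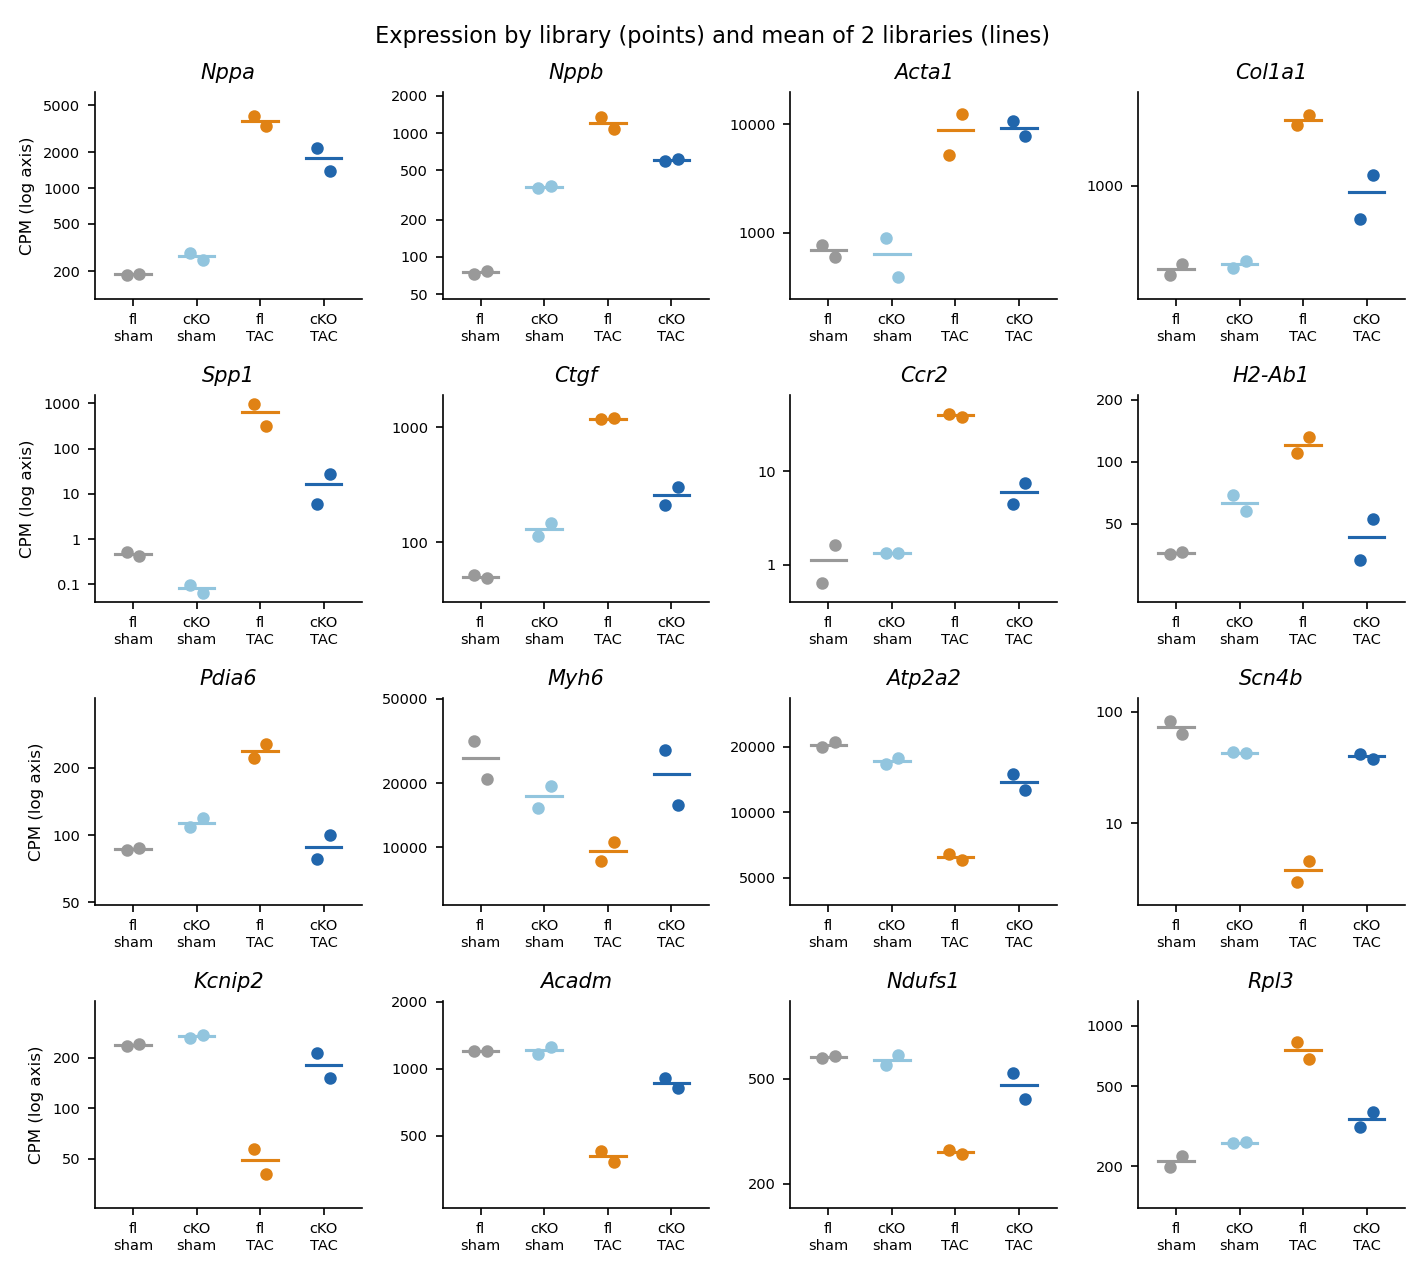
Expression of 16 genes in each library (points, CPM, log axis) and the mean of the 2 libraries of each group (lines), in floxed sham, cKO sham, floxed TAC and cKO TAC hearts. Col1a1, Spp1, Ccr2 and Pdia6 were lower and Atp2a2, Scn4b, Kcnip2 and Acadm higher in both cKO TAC libraries than in both floxed TAC libraries, while the points of Acta1 overlap.

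The cytoskeleton of growing cells was lower in 21 of 25 genes, with none higher and a median of -1.06. All 6 beta tubulins listed were lower, from -0.95 for Tubb4b to -3.14 for Tubb3. Tubb4b missed the threshold without floxed TAC 1 (adjusted p = 0.113), floxed TAC 2 (adjusted p = 0.0755) or cKO TAC 1 (adjusted p = 0.106), and the count of beta tubulins past it was 4, 5 and 5 in these fits. The neuronal isotype Tubb3 was at 67.0 and 44.6 CPM in floxed TAC and 3.48 and 7.95 CPM in cKO TAC hearts, and Tubb6 at 199.7 and 203 against 50.3 and 78.1 CPM. Of 5 alpha tubulins 3 (Tuba1a, Tuba1b and Tuba1c) were lower, whereas Tuba8 (-0.63) did not pass. Tubulin isotypes are close in sequence, and how reads shared between copies were counted is not given in the sources used here, so single isotypes are uncertain. The intermediate filament gene Vim was at 1368 and 1350.4 against 561 and 671 CPM (log2 -1.15 ± 0.13, adjusted p = 0.00102) and the lamin gene Lmna at 324 and 348 against 159 and 178 CPM (log2 -0.99 ± 0.10, adjusted p = 0.000908). Sprr1a, a small proline-rich stress protein, fell from 566 and 275 CPM to 7.23 and 95.9 CPM (log2 -3.81 ± 0.87, adjusted p = 0.0125), but missed the threshold without floxed TAC 1 (adjusted p = 0.0934).

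Of 21 genes of contraction and calcium handling 10 were higher, 11 did not pass and none was lower, with a median of 0.365. The higher count was 6 without floxed TAC 2 and 6 without cKO TAC 1, each with 1 or no gene lower. Atp2a2, which encodes the calcium pump SERCA2 of the sarcoplasmic reticulum, was at 6422 and 6009 CPM in floxed TAC and 14973 and 12617 CPM in cKO TAC hearts (log2 1.15 ± 0.18, adjusted p = 0.00298). Sham libraries lay at 19897 and 20986 and, for cKO, 16609.6 and 17689 CPM, so the cKO TAC values stood between floxed TAC and sham. Its inhibitor phospholamban (Pln) rose alongside, at 3023 and 2939 against 6076 and 5239.8 CPM (log2 0.92 ± 0.15, adjusted p = 0.00330). Hrc, a calcium-binding protein of the same store, was at 256 and 345 against 1063 and 911 CPM (log2 1.73 ± 0.16, adjusted p = 0.000764), and the release channel gene Ryr2 at 1009 and 949 against 1683 and 1513 CPM (log2 0.71 ± 0.11, adjusted p = 0.00335). The fast myosin gene Myh6 passed with a log2 difference of 1.17 ± 0.31, adjusted p = 0.0242, at 8565 and 10531 against 28600.4 and 15872 CPM. It missed the threshold when floxed TAC 1 (adjusted p = 0.127), floxed TAC 2 (0.0670) or cKO TAC 1 (0.134) was left out. Cardiac actin (Actc1, -0.43) and alpha-tropomyosin (Tpm1, 0.18) did not pass.

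Of 22 ion channel genes of the action potential 12 were higher and none was lower, with a median of 0.647. Without floxed TAC 2 the higher count was 7. Scn4b (chromosome 9, 45138395 to 45154152), a beta subunit of the sodium channel, was at 2.97 and 4.60 CPM in floxed TAC and 41.7 and 38.1 CPM in cKO TAC hearts. It was 10.5-fold higher by the means (log2 3.11 ± 0.19, adjusted p = 0.000223), against 83.4 and 63.0 CPM in floxed sham hearts. Genes of the transient outward potassium current were both higher, with Kcnip2, its accessory subunit, at 57.4 and 40.8 against 213 and 151 CPM (log2 1.87 ± 0.18, adjusted p = 0.000791) and Kcnd2, its pore, at 7.86 and 5.30 against 19.4 and 23.1 CPM (log2 1.57 ± 0.20, adjusted p = 0.00133). Kcnj3, Kcnv2 and Kcnh2 were higher by log2 1.62, 1.74 and 1.12. The gap junction gene Gja1 was at 834 and 711 against 265 and 696 CPM and did not pass (-0.84 ± 0.35, adjusted p = 0.108).

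Fibrillar matrix was the list with the lowest median. Of 31 genes of fibrillar matrix and collagen processing 26 were lower, none was higher and 5 did not pass, with a median log2 difference of -1.44. Col1a1 (chromosome 11, 94936224 to 94953042), a chain of type I collagen, was at 3413 and 4100.3 CPM in floxed TAC and 509 and 1248 CPM in cKO TAC hearts (log2 -2.23 ± 0.33, adjusted p = 0.00233), against 165 and 207 CPM in floxed sham hearts. Its partner chain Col1a2 was at 2732 and 3247 against 539.7 and 1042 CPM (log2 -1.99 ± 0.25, adjusted p = 0.00126). In both genes cKO TAC 1 was the lowest TAC library. Across 18 collagen chains 15 were lower, from -2.26 for Col12a1 to -0.71 for Col18a1, and the basement membrane chains Col4a1 (-0.69) and Col4a2 (-0.71) did not pass. Col18a1 lost the call without floxed TAC 2 (adjusted p = 0.108), where 9 of the 18 chains passed.

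Enzymes that fold and cross-link collagen were lower as well. Lox, lysyl oxidase, was at 284 and 229 against 19.5 and 58.2 CPM (log2 -2.88 ± 0.42, adjusted p = 0.00222), and Loxl2 and Loxl3 had log2 differences of -1.77 and -2.49. The collagen chaperone Serpinh1 was at 1259 and 1326 against 310.4 and 531 CPM (log2 -1.67 ± 0.20, adjusted p = 0.00117), with cKO TAC 1 near the floxed sham level of 273 and 289.6 CPM.

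Matricellular and activated fibroblast genes were lower in 23 of 30 cases, with none higher and a median of -1.35. Without floxed TAC 2 the lower count was 15. Osteopontin (Spp1, chromosome 5, 104435118 to 104441050), an adhesive cytokine of macrophages and injured muscle, had the lowest log2 difference of all genes named by rule. It was at 956 and 324 CPM in floxed TAC and 5.85 and 27.7 CPM in cKO TAC hearts, 38.1-fold lower by the means (log2 -5.31 ± 0.61, adjusted p = 0.00104). Each of the 4 values lay above all sham libraries, which were at 0.519 CPM or less. Tenascin C (Tnc), a glycoprotein of remodelling matrix, was at 525 and 628 against 19.6 and 110.4 CPM (log2 -3.58 ± 0.62, adjusted p = 0.00422). Connective tissue growth factor (Ctgf), a target of stretch and TGF-beta, was at 1186 and 1189 against 211 and 300.4 CPM (log2 -2.23 ± 0.17, adjusted p = 0.000328). Periostin (Postn), which marks activated fibroblasts, was at 1515 and 1698 against 403 and 677 CPM (log2 -1.62 ± 0.23, adjusted p = 0.00195) and stayed above the sham range of 36.3 to 51.1 CPM. Fibronectin (Fn1), Mfap5 and Fstl1 had log2 differences of -2.09, -1.64 and -1.49. Markers of resident fibroblasts separated less, with 3 of 12 lower and 1 higher, among them Pdgfra at 65.2 and 70.6 against 45.6 and 52.8 CPM (log2 -0.46 ± 0.12, adjusted p = 0.0208) and Tcf21, which did not pass (-0.74 ± 0.24, adjusted p = 0.0516). Pdgfra lost its call without floxed TAC 2 (adjusted p = 0.119).

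Of 25 matrix proteases and inhibitors 13 were lower, 1 was higher and 11 did not pass, with a median of -1.04. The inhibitor Timp1 was at 272 and 361 against 21.7 and 57.3 CPM (log2 -3.11 ± 0.37, adjusted p = 0.00106); it overlaps Syn1 on the other strand. The membrane protease Adam8 was at 28.9 and 30.0 against 1.27 and 1.79 CPM (log2 -3.60 ± 0.24, adjusted p = 0.000224), and the macrophage elastase Mmp12 at 21.6 and 9.76 against 0.276 and 1.09 CPM. The inhibitor Timp2 (-0.32) did not pass. In the TGF-beta pathway 10 of 25 genes were lower, including the ligands Tgfb2 (-1.80 ± 0.30, adjusted p = 0.00384) and Tgfb3 (-1.17 ± 0.20, adjusted p = 0.00409) and the receptor Tgfbr1 (-0.77 ± 0.13, adjusted p = 0.00417), while the intracellular mediator Smad2 (-0.21) did not pass. Integrins and adhesion receptors were lower in 13 of 23 cases, with the fibronectin receptor chain Itga5 at 351 and 334 against 108 and 131 CPM (log2 -1.52 ± 0.12, adjusted p = 0.000423). The lower count of that list was 7 without floxed TAC 2 and 7 without cKO TAC 1.

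Of 25 macrophage markers 21 were lower and none was higher (median -1.43). Ccr2, the receptor that brings monocytes from blood, was at 40.5 and 38.1 CPM in floxed TAC and 4.41 and 7.49 CPM in cKO TAC hearts (log2 -2.57 ± 0.28, adjusted p = 0.000968), against 0.649 and 1.62 CPM in floxed sham hearts. Lgals3, galectin 3 of activated macrophages, was at 126 and 83.2 against 10.5 and 20.6 CPM (log2 -2.72 ± 0.39, adjusted p = 0.00221), and Gpnmb, of lipid-laden and phagocytic macrophages, at 143 and 31.9 against 2.43 and 6.51 CPM (log2 -3.76 ± 0.59, adjusted p = 0.00301). The arginase gene Arg1 was at 7.13 and 10.9 against 0.165 and 0.230 CPM, the cKO values being at or near the level of 3 reads (0.165 and 0.173 CPM). Cd68 and Csf1r, found on macrophages in general, had smaller differences (-1.46 ± 0.20 and -1.02 ± 0.15). The complement chain C1qa was at 236 and 238 against 106 and 142 CPM (-0.95 ± 0.16).

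Of 5 markers of resident cardiac macrophages, grouped after their values were seen, Mrc1 and Cd163 were lower (Cd163 not without floxed TAC 2, adjusted p = 0.182), while Folr2 (-0.35 ± 0.24, adjusted p = 0.316), Lyve1 (-0.063 ± 0.29, adjusted p = 0.899) and Timd4 (0.54 ± 0.33, adjusted p = 0.266) did not pass. Timd4 was at 1.05 and 1.49 against 1.99 and 2.59 CPM, higher in both cKO TAC libraries. Chemokines, cytokines and acute phase genes were lower in 20 of 31 cases and higher in 2 (median -1.13). The lower count was 11 without floxed TAC 1, 10 without floxed TAC 2 and 12 without cKO TAC 1. The monocyte chemokine gene Ccl2 was at 15.5 and 26.6 against 1.77 and 7.03 CPM (log2 -2.18 ± 0.46, adjusted p = 0.00950) and Socs3, the feedback inhibitor of interleukin 6 family signals, at 35.3 and 40.2 against 4.14 and 9.10 CPM (log2 -2.42 ± 0.30, adjusted p = 0.00126). The 2 higher genes were the receptor Lifr (0.65) and the interferon-gamma chemokine Cxcl9 (1.17), and Lifr lost the call without floxed TAC 2 (adjusted p = 0.0915), as did Ccl2 (adjusted p = 0.0830). Interferon response genes stayed near the background, with 3 of 23 lower and 1 higher (median -0.14), as did neutrophil and lymphocyte markers, with 1 of 6 lower. No interferon gene was lower past the threshold without floxed TAC 1 or cKO TAC 1 and 1 without floxed TAC 2, and no neutrophil or lymphocyte marker without floxed TAC 1.

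Antigen presentation split by class. All 7 genes of the MHC class II pathway were lower, from -1.50 to -1.28, and none of the 8 genes of the class I pathway passed, with differences from -0.24 to 0.27. Ciita, the class II transactivator gene, missed the threshold without floxed TAC 2 (adjusted p = 0.0844). Class II molecules display extracellular antigen on macrophages and dendritic cells, whereas class I is carried by nearly every cell. H2-Ab1 was at 110.4 and 131 CPM in floxed TAC and 33.4 and 52.5 CPM in cKO TAC hearts, the latter on either side of floxed sham (35.7 and 36.4 CPM) and below cKO sham (68.5 and 57.5 CPM). The invariant chain gene Cd74 was at 376 and 455 against 125 and 181 CPM (log2 -1.45 ± 0.18, adjusted p = 0.00126). H2-K1 was at 185 and 155 against 165 and 238 CPM (0.23 ± 0.20, adjusted p = 0.450), and its groups overlapped. The division by class was made after the values were seen.

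**Figure D4:**
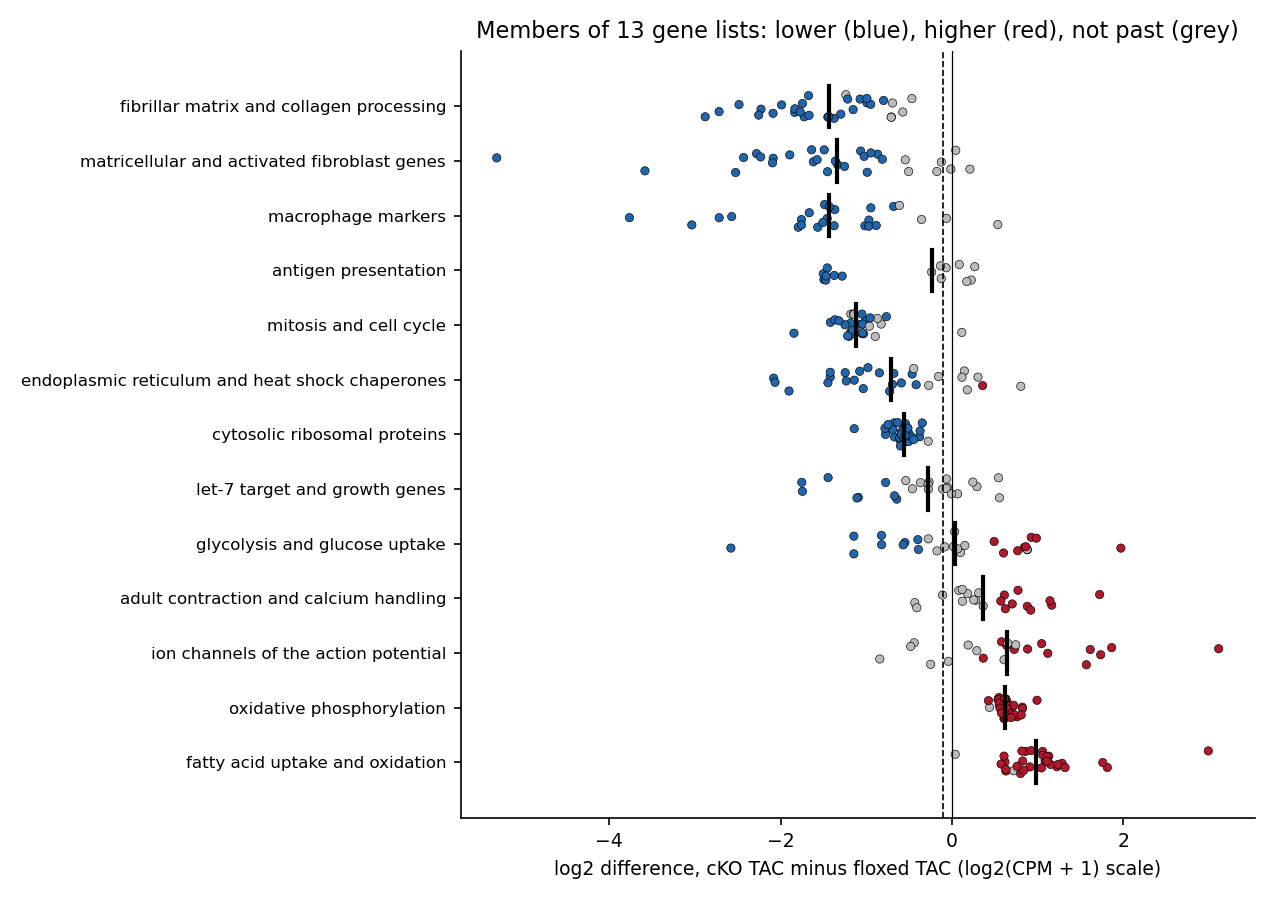
Log2 difference of each tested member (point) of 13 gene lists, cKO TAC minus floxed TAC, coloured blue where lower, red where higher and grey where not past the threshold. Thick bars are list medians and the dashed line is the median of all genes (-0.10). Antigen presentation forms 2 clusters, ribosomal proteins and oxidative phosphorylation form tight ones, and glycolysis spreads to both sides.

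Of 28 mitosis genes 21 were lower and none was higher (median -1.12), and of 27 DNA replication genes 11 were lower and none was higher (median -0.65). Plk1, a mitotic kinase, was at 20.1 and 17.9 CPM in floxed TAC and 3.14 and 6.45 CPM in cKO TAC hearts (log2 -1.84 ± 0.31, adjusted p = 0.00384), and Rrm2, which makes deoxynucleotides, at 19.2 and 19.6 against 5.96 and 7.49 CPM (log2 -1.41 ± 0.22, adjusted p = 0.00272). All of these values lay above the sham libraries. The proliferation antigen gene Mki67 did not pass, at 22.1 and 40.6 against 19.6 and 13.8 CPM (-0.83 ± 0.33, adjusted p = 0.0958). The count of mitosis genes past the threshold was 1 of 28 without floxed TAC 1, and also 1 without floxed TAC 2 and 1 without cKO TAC 1. That of DNA replication genes was 3, 4 and 4 of 27 in the same order. Mitosis genes already had a median of -0.446 in sham hearts, and 1 of 28 passed the test of a different genotype effect under TAC.

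Fatty acid metabolism was the list with the highest median, 0.985. Of 30 genes of uptake and oxidation 28 were higher, none was lower and 2 did not pass. Acadm (chromosome 3, 153922357 to 153944632), medium-chain acyl-CoA dehydrogenase, was at 430.1 and 382 CPM in floxed TAC and 909.5 and 819 CPM in cKO TAC hearts (log2 1.09 ± 0.11, adjusted p = 0.000908), against 1206 and 1204 CPM in floxed sham hearts. Hadh and Eci1, which act later in the oxidation spiral, were at 269 and 247 against 693 and 574 CPM (log2 1.29 ± 0.13, adjusted p = 0.000791) and 86.5 and 83.9 against 223 and 183 CPM (log2 1.24 ± 0.11, adjusted p = 0.000791). In all 3 genes the cKO TAC values lay between floxed TAC and sham. Acsl1, which activates fatty acids, and Cpt2, of the inner carnitine shuttle, were higher by log2 1.23 and 1.15, and the thioesterase genes Acot1 and Acot2 by log2 1.76 and 1.82. The uncoupling protein gene Ucp3 was at 3.47 and 12.4 against 46.6 and 78.7 CPM (log2 2.99 ± 0.53, adjusted p = 0.00466).

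Of 31 oxidative phosphorylation genes 30 were higher, with a range of 0.43 (Cox5a) to 0.99 (Cox7a1) and a median of 0.62. Sdhd (0.44 ± 0.15, adjusted p = 0.0581) alone did not pass. The count was 16 of 31 without floxed TAC 2 and 17 without cKO TAC 1. Ndufs1, of complex I, was at 269.6 and 260.2 CPM in floxed TAC and 524 and 420.2 CPM in cKO TAC hearts (log2 0.82 ± 0.12, adjusted p = 0.00239), and Cox8b, of cytochrome oxidase, at 374 and 362 against 694 and 602 CPM (log2 0.81 ± 0.12, adjusted p = 0.00236). Of 31 genes of the TCA cycle and branched-chain amino acid breakdown 28 were higher and 1 was lower (median 0.636). The lower one was Bcat1, the cytosolic branched-chain aminotransferase, at 16.5 and 18.5 against 3.03 and 2.65 CPM (log2 -2.27 ± 0.24, adjusted p = 0.000909). Metabolic regulators were higher in 12 of 20 cases (7 without floxed TAC 2) and lower in none. They included the coactivator gene Ppargc1a at 48.1 and 41.8 against 119 and 77.3 CPM (log2 1.08 ± 0.22, adjusted p = 0.00739), the fatty acid receptor gene Ppara (0.97), the estrogen-related receptor gene Esrrb (0.63) and the retinoid receptor gene Rxrg (1.10). Ppargc1a and Ppara missed the threshold without floxed TAC 2 (adjusted p = 0.0602 and 0.0658).

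Glucose metabolism divided by isoform. Of 27 genes of glycolysis and glucose uptake 9 were lower, 9 higher and 9 did not pass, with a median of 0.03. The lower count was 4 without floxed TAC 1, 3 without floxed TAC 2 and 3 without cKO TAC 1. At 4 steps that have one isoform typical of muscle and one of other or growing cells, chosen after the values were seen, the muscle form was higher and the other lower. For glucose transport, Slc2a4 was at 339 and 264 against 602 and 482 CPM (0.85 ± 0.15) and Slc2a1 at 81.1 and 62.8 against 26.1 and 38.6 CPM (-1.14 ± 0.19). For phosphofructokinase, Pfkm was at 581 and 527 against 1077 and 966 CPM (0.88 ± 0.11) and Pfkp at 221 and 261 against 86.0 and 136 CPM (-1.14 ± 0.23). The remaining pairs were Eno3 (0.99) and Eno1 (-0.82), and Pgam2 (0.49) and Pgam1 (-0.82). Of the lactate dehydrogenase subunits, the heart form Ldhb was higher (0.86) and the muscle form Ldha lower (-0.57). Eno1 and Ldha lost the call without floxed TAC 1 (adjusted p = 0.141 and 0.0621), and Pfkp, Pgam1 and Pgam2 without floxed TAC 2 (adjusted p = 0.0653, 0.0923 and 0.253). Gapdh (0.15) and Aldoa (0.10), of the shared middle steps, did not pass. The lactate exporter gene Slc16a3 was at 43.2 and 30.3 against 4.63 and 5.88 CPM (log2 -2.58 ± 0.25, adjusted p = 0.000791).

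In the list of Pck2, serine, one-carbon, pentose and nucleotide synthesis, 10 of 29 genes were lower and 2 higher (median -0.45). The lower count was 2 without floxed TAC 1, 4 without floxed TAC 2 and 4 without cKO TAC 1. All 4 genes of the pentose phosphate route were lower (2 without floxed TAC 1), among them G6pdx, its entry enzyme, at 34.1 and 31.5 against 12.96 and 16.2 CPM (log2 -1.12 ± 0.18, adjusted p = 0.00324) and Pgd at 99.9 and 103 against 44.5 and 61.4 CPM (log2 -0.94 ± 0.16, adjusted p = 0.00417). Of 10 purine and pyrimidine synthesis genes 1 was lower (none without floxed TAC 1, floxed TAC 2 or cKO TAC 1, and 4 without cKO TAC 2). Pck2, mitochondrial phosphoenolpyruvate carboxykinase, was at 21.6 and 20.9 CPM in floxed TAC and 13.3 and 16.8 CPM in cKO TAC hearts. Its groups did not overlap, as for 63.8% of all genes tested, but it did not pass (log2 -0.48 ± 0.19, adjusted p = 0.0932). Integrated stress response genes were near the background, with 4 of 23 lower (2 without floxed TAC 2) and 1 higher. The amino acid transporter chains Slc7a5 (-1.28 ± 0.22, adjusted p = 0.00402) and Slc3a2 (-0.67 ± 0.10, adjusted p = 0.00260) were among the lower, and the transcription factor gene Atf4 (-0.42) did not pass.

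Of 28 endoplasmic reticulum and heat shock chaperone genes 19 were lower and 1 was higher (median -0.71). The interaction described below was negative past the threshold for 19 of the 28, which are not all the same genes. It also draws on the sham libraries, where the list median was 0.272. Pdia6, a disulfide isomerase, was at 220.5 and 256 CPM in floxed TAC and 78.1 and 99.7 CPM in cKO TAC hearts (log2 -1.42 ± 0.14, adjusted p = 0.000791), against 85.4 and 87.2 CPM in floxed and 109 and 119 CPM in cKO sham hearts. Hspa5 (BiP), the main Hsp70 of that compartment, was at 603 and 734 against 384 and 420.4 CPM (log2 -0.73 ± 0.15, adjusted p = 0.00966), with 445 and 428 CPM in floxed sham hearts. Manf and Sdf2l1, secreted or resident stress proteins, had log2 differences of -1.45 and -1.90, and Xbp1, which encodes a transcription factor of the unfolded protein response, one of -1.03. The cytosolic heat shock genes Hspa1a and Hspa1b, near-identical copies whose reads cannot be told apart with certainty, had log2 differences of -2.08 and -2.06. The higher gene was Hspd1, a mitochondrial chaperonin (0.36 ± 0.11, adjusted p = 0.0430). Hspa5 and Dnajc3 missed the threshold without floxed TAC 2 (log2 -0.585 and -0.537). Hspd1 missed it in each fit that left out 1 TAC library (log2 0.33 to 0.389).

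Promoters of some of these genes are shown because they hold a known sequence. The endoplasmic reticulum stress element, CCAAT and CCACG with 9 bases of any kind between them on either strand, is the site to which factors of the unfolded protein response are known to bind. It was searched from 250 bases before to 50 bases after each RefSeq gene start and was present in 15 of 9705 tested genes with a promoter in the table (0.155%). Of 23 chaperone list genes with a promoter 7 held it (30.4%). In cKO TAC hearts 6 of the 7 were lower, against 19 of 28 (67.9%) over the whole list. The whole list includes these 7 and also genes without a promoter in the table, so the 2 shares are not like for like. Pdia6, Hspa5, Creld2 and Canx follow with the element in capitals and up to 40 flanking bases (GRCm38.p6, strand of the gene); in Creld2 the element lies on the other strand.
Pdia6 (chr12:17266451-17266549): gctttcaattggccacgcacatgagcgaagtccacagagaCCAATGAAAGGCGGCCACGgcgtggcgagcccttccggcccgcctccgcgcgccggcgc
Hspa5 (chr2:34771985-34772083): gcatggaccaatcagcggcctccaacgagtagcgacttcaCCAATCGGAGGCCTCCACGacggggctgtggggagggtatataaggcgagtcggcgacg
Creld2 (chr15:88819480-88819578): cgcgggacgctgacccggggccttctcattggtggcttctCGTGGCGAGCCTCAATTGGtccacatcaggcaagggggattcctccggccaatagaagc
Canx (chr11:50325760-50325858): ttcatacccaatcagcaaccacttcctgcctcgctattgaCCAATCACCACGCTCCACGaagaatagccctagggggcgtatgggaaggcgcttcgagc
Creld2 was at 23.7 and 33.2 CPM in floxed TAC and 12.2 and 10.5 CPM in cKO TAC hearts (log2 -1.23 ± 0.22, adjusted p = 0.00490). Calr (-0.98), Dnajc3 (-0.68) and Hsp90b1 (-0.69), which holds 2 elements, were lower too. Calnexin (Canx) is shown as the exception, at 353 and 368 against 293 and 305 CPM (-0.27 ± 0.10, adjusted p = 0.0702). Over all promoters, the element was in 0.496% of those of lower genes (8 of 1613) and 0.12% of those of higher genes (1 of 830). The 8 lower genes include the 6 chaperone genes above, so the 2 counts are not separate. The AP-1 sequence TGANTCA was in 6.38% of all promoters, 8.93% of those of lower and 6.75% of those of higher genes, and the ERR sequence TNAAGGTCA in 0.896%, 0.992% and 1.08%.

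Of 29 cytosolic ribosomal protein genes 28 were lower, with a range of -1.14 (Rpl3) to -0.35 (Rps9), a median of -0.56 and Rps24 (-0.28 ± 0.12, adjusted p = 0.130) not past. Rpl3, a core protein of the large subunit, was at 829.9 and 687 CPM in floxed TAC and 314 and 373 CPM in cKO TAC hearts (log2 -1.14 ± 0.13, adjusted p = 0.00105). Rpl3 was at 199.6 and 227 CPM in floxed and 261 and 264 CPM in cKO sham hearts, below all 4 TAC values. These genes have many processed copies in the genome, so single values are uncertain, and without floxed TAC 1 the count past the threshold was 16 of 29. Of 26 ribosome biogenesis and translation genes 5 were lower and none higher (median -0.27), among them Eif4a1 (-0.72 ± 0.11, adjusted p = 0.00259) and Npm1 (-0.49 ± 0.10, adjusted p = 0.00845), and Ncl (-0.10) and Polr1a (0.22) not past. The lower count was 3 without floxed TAC 1, 2 without floxed TAC 2 and 2 without cKO TAC 1.

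Growth genes known as let-7 targets were lower in 8 of 24 cases and higher in none, with a median of -0.28. The lower count was 4 without floxed TAC 1, 5 without floxed TAC 2 and 3 without cKO TAC 1. Igf2bp2, an RNA-binding protein of growing tissue, was at 14.8 and 17.8 CPM in floxed TAC and 5.46 and 5.19 CPM in cKO TAC hearts (log2 -1.45 ± 0.25, adjusted p = 0.00422), and the growth factor receptor gene Tgfbr1 at 51.4 and 45.7 against 27.7 and 28.2 CPM. Myc was at 21.9 and 37.95 against 6.45 and 9.57 CPM (log2 -1.75 ± 0.40, adjusted p = 0.0126), and lost the call without floxed TAC 2 (adjusted p = 0.107) or cKO TAC 1 (adjusted p = 0.0809). The calls of Igf1r and Nras were lost without floxed TAC 1 (adjusted p = 0.124 and 0.0592). The classical target Hmga2 was at 5.72 and 5.20 against 5.90 and 4.61 CPM (-0.053 ± 0.22, adjusted p = 0.885) although it carries an 8mer, and Cdk6 (-0.28) did not pass. Of 23 list members with an annotated 3′ UTR 10 held the 8mer, and 5 of these were lower, among them the 4 printed above.

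Over all genes, those with the let-7 8mer had a median and shares close to the rest. The 439 tested genes with a CTACCTCA in the 3′ UTR had a median log2 difference of -0.111, and 17.3% were lower and 8.2% higher. The 12020 tested genes with an annotated 3′ UTR had a median of -0.108, with 17.2% lower and 8.46% higher. Genes with a 7mer match alone (CTACCTC or TACCTCA, 1623 genes) had a median of -0.104, and those without either (9958 genes) -0.108. Genes with an 8mer have longer 3′ UTRs (median 2480 against 1021 bases without a site). In the insulin and IGF list, Igfbp3 (-1.33 ± 0.22, adjusted p = 0.00364) and Igf1 (-0.87) were lower, Tsc2, which restrains mTOR, was higher (0.45 ± 0.095, adjusted p = 0.00897), and 21 of 26 genes did not pass. Igf1 lost the call without floxed TAC 1 (adjusted p = 0.0704), where 2 genes of the list were lower, against 1 without floxed TAC 2 or cKO TAC 1 and 4 in the full fit.

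Ces1d (chromosome 8, 93166068 to 93197838), a carboxylesterase that hydrolyses triglyceride, had the highest log2 difference of the genes named by rule. It was at 2.93 and 5.71 CPM in floxed TAC and 74.0 and 46.3 CPM in cKO TAC hearts, 13.9-fold higher by the means (log2 3.54 ± 0.26, adjusted p = 0.000281), against 158 and 158 CPM in floxed sham hearts. Mylk4, a kinase of the myosin light chain kinase family, was at 31.0 and 32.8 against 242 and 96.0 CPM (log2 2.22 ± 0.32, adjusted p = 0.00213), and Lrtm1, a leucine-rich membrane protein, at 129 and 124 against 458 and 474 CPM (log2 1.87 ± 0.14, adjusted p = 0.000328). Mylk4 was higher in cKO TAC 1 than in cKO TAC 2. Heme oxygenase (Hmox1), induced by heme and oxidants, was at 149 and 175 against 27.0 and 36.4 CPM (log2 -2.32 ± 0.16, adjusted p = 0.000281), while the catalase gene Cat was higher, at 179 and 172 against 302 and 312 CPM (log2 0.80 ± 0.10, adjusted p = 0.00126). Wdr92 was at 807 and 1492 against 116 and 57.0 CPM, but it was also at 74.4 and 584 CPM in the cKO sham libraries, overlaps Ppp3r1 on its own strand and lost the call without floxed TAC 2 (adjusted p = 0.0657).

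Fewer genes passed in the same genotype comparison of sham hearts, by limma 7 of 13120 (0.0534%), with 1 lower (0.00762%) and 6 higher (0.0457%), and 1013 had an unadjusted p under 0.05. On the same sham libraries limma-voom called 1 gene, edgeR 6 and DESeq2 49. The genotype by surgery interaction, the difference under TAC minus that in sham hearts, passed for 1851 genes (14.1%), 1204 negative (9.18%) and 647 positive (4.93%). Of the 2162 genes lower under TAC 1120 had a negative interaction past the threshold, and of the 1101 higher genes 575 had a positive one. For 1567 called genes the interaction did not pass, so a difference from the sham effect was not shown for them. By list, the interaction was negative for 22 of 31 fibrillar matrix genes, 14 of 25 macrophage markers and 25 of 29 ribosomal proteins. It was positive for 25 of 30 fatty acid genes, 12 of 22 ion channels and 9 of 31 oxidative phosphorylation genes. The interaction shares the TAC libraries with the comparison above and is not separate support for it. The library cKO sham 2 had no read of the Y-linked gene Ddx3y, against 50.9 and 32.3 CPM in floxed TAC, 56.4 and 45.5 CPM in cKO TAC and 49.5 to 63.2 CPM in the other sham libraries. The part of this in the sham values was not tested.

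**Figure D5:**
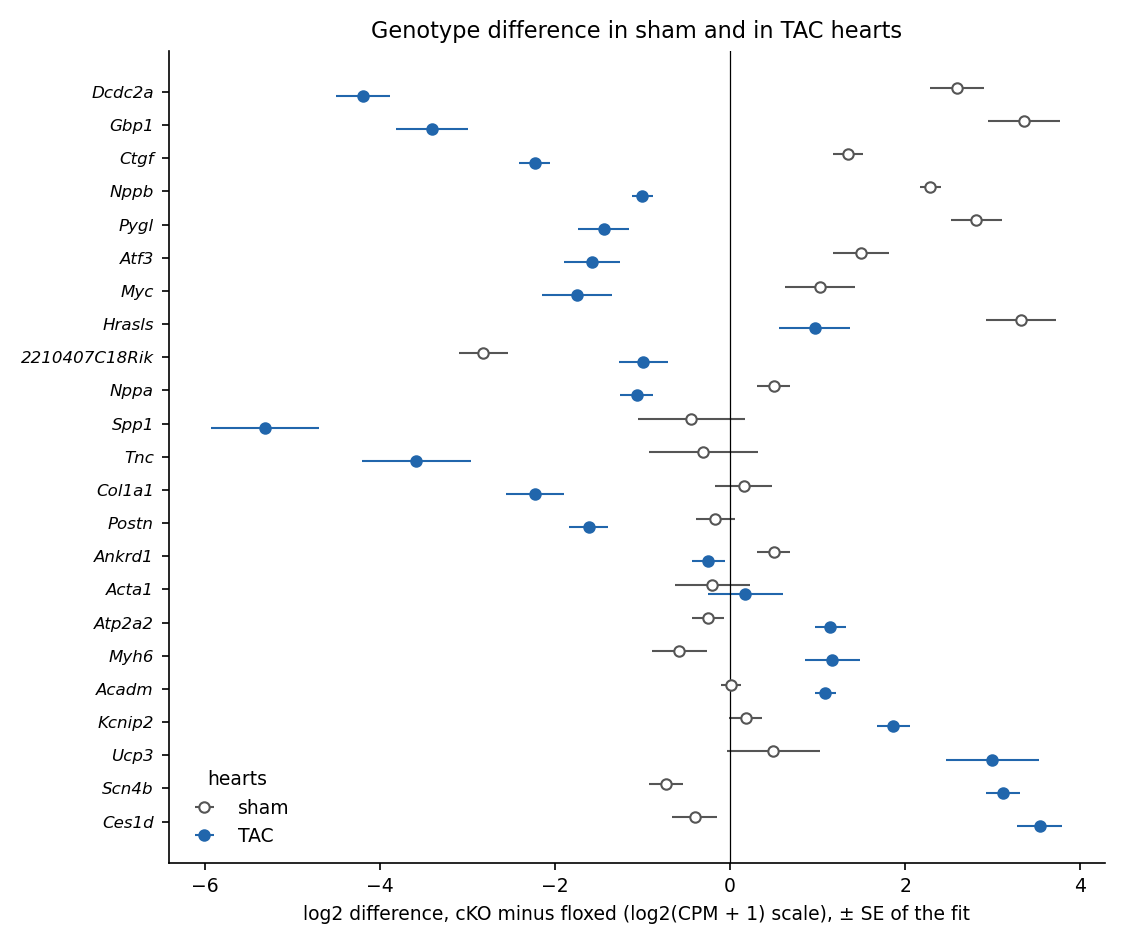
Genotype difference (cKO minus floxed, log2(CPM + 1) scale) in sham hearts (open circles) and TAC hearts (filled circles) for 23 genes, with the standard error of the fit as bars. Dcdc2a, Gbp1, Ctgf, Nppb and Pygl lie above 0 in sham hearts and below 0 in TAC hearts, and Hrasls lies above 0 in both.

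Of the 7 genes called in sham hearts, 5 had the opposite sign under TAC. Ctgf, Dcdc2a, Gbp1, Nppb and Pygl were higher in cKO sham than in floxed sham hearts and lower in cKO TAC than in floxed TAC hearts. Nppb was at 73.3 and 76.9 CPM in floxed sham and 364 and 377 CPM in cKO sham hearts (log2 2.29 ± 0.12, adjusted p = 7.34e-05), and its interaction was -3.29 ± 0.17 (adjusted p = 6.26e-05). Ctgf was at 51.7 and 48.6 against 113 and 147 CPM in sham hearts (log2 1.34 ± 0.17, adjusted p = 0.0366). Dcdc2a, a doublecortin domain gene, was at 0.324 and 0.180 against 4.36 and 9.62 CPM in sham hearts and at 24.7 and 26.2 against 0.552 and 0.346 CPM under TAC (log2 -4.19 ± 0.31, adjusted p = 0.000281). Gbp1, a guanylate-binding protein gene, was at 0.260 and 0.0600 against 6.01 and 19.1 CPM in sham hearts and at 10.9 and 13.2 against 0.221 and 0.230 CPM under TAC (log2 -3.41 ± 0.41, adjusted p = 0.00114). For Dcdc2a and Gbp1 the cKO libraries lay lower under TAC than after sham, and the floxed libraries higher. The liver-type glycogen phosphorylase gene Pygl was at 28.6 and 27.3 against 6.45 and 14.2 CPM under TAC (log2 -1.44 ± 0.29, adjusted p = 0.00763) and 4.09 and 5.58 against 40.04 and 39.3 CPM in sham hearts. Hrasls was higher in cKO sham hearts and not past under TAC (0.97 ± 0.40, adjusted p = 0.111), and 2210407C18Rik was lower in both, at 6.54 and 3.34 against 2.04 and 1.73 CPM under TAC (log2 -0.99 ± 0.28, adjusted p = 0.0297). The TAC call of 2210407C18Rik was lost without floxed TAC 1 (adjusted p = 0.204), as was that of Pygl (adjusted p = 0.0520).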

How the data were processed

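Polyadenylated RNA of snap-frozen left ventricle was sequenced from 8 libraries, 2 per genotype and operation. Reads were aligned with Bowtie2 2.2.6 to mm10, and HTSeq and DESeq2 are also named, per the submitters' processing notes. The sources used here do not state how strand and multiple matches were handled. The authors deposited CPM, read counts scaled to a library total of 1000000. Every value came out as a whole number of reads within 0.02 reads, so library totals (10315902 to 21871570 over the 8) and reads were recovered. A few genes are not reported here. A level of 3 reads corresponds to 0.137 to 0.291 CPM.

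A gene entered the test if 2 or more libraries reached 1 CPM. All 8 libraries were fitted with limma 3.58.1 (R 4.3.3, trend) on log2(CPM + 1) with 1 mean per group. Differences are on that log2 scale, which understates changes of low genes. They are given with the standard error of the fit, and p-values were adjusted by Benjamini-Hochberg over 13120 genes. Means of 2 libraries limit precision. Alternatives were other pseudocounts, filters and scalings, limma-voom, edgeR 4.0.16 and DESeq2 1.42.0 on recovered reads, the 4 TAC libraries alone, a replicate block and leaving out libraries. Where a call is said to be lost without 1 library, it may also be lost without others. Such notes do not cover every gene or every fit. Scripts were tested on simulated data.

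The members and the 44 gene lists were chosen with earlier results of these data known. Genes were named by a rule: the 15 lowest and 15 highest called genes with at least 5 CPM, up to 6 per list with the smallest adjusted p, and a short fixed set. Of the genes named in the text 58 fall outside that rule and were chosen after their values were seen. Sites and promoters were matched to GENCODE vM21 (GRCm38) and RefSeq (GRCm38.p6). No annotation of proteins was used here.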

Additional observations from a re-analysis of the deposited data

Results flagged for a closer look

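The genotype difference under TAC differed from that in sham hearts, by the interaction term of limma at an adjusted p under 0.05, for 1851 genes, of which 120 are named above. Among the 7 genes that passed in sham hearts, the log2 interaction was -6.79 for Dcdc2a, -6.77 for Gbp1, -4.25 for Pygl (a glycogen phosphorylase gene), -3.58 for Ctgf, -3.29 for Nppb and -2.36 for Hrasls. It was 1.83 for 2210407C18Rik, which was nearly absent from both cKO sham libraries (0.194 and 0.199 CPM against 7.98 and 6.96 CPM in floxed sham hearts). Hrasls was at 2.85 and 1.20 CPM in floxed sham, 45.3 and 17.4 CPM in cKO sham, 13.7 and 14.3 CPM in floxed TAC and 33.6 and 23.8 CPM in cKO TAC hearts. These values share the TAC libraries with the comparison above.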

How the results depend on the processing

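Called genes under TAC numbered 2934 to 3639 under the other scalings, filters, pseudocounts and tools, 2290 with the 4 TAC libraries alone, and 1400 (without cKO TAC 1) to 3622 (without cKO TAC 2) when 1 library was left out. A further fit left out the 3 libraries with atrial transcripts, floxed sham 2, cKO sham 2 and cKO TAC 2. It kept 1 cKO TAC library, so its TAC differences are those without cKO TAC 2 and are not a separate check. Sham calls numbered 1 by limma-voom, 49 by DESeq2 and 1 (without floxed sham 1) to 15 (without cKO sham 1) with 1 library left out. Interaction calls ranged from 254 (without floxed sham 1) to 2919 (without cKO TAC 2). Interaction calls that were positive made up 35% of the total with library totals, 48% by TMM and RLE scaling, 51.2% by edgeR and 51.9% by DESeq2. Of 138 named genes past the threshold under TAC, 104 passed under every alternative run, and 34 missed it under at least 1. The named genes were chosen largely for size, small adjusted p or after their values were seen, so this share is not that of all called genes. With the 4 TAC libraries alone, 126 of the 138 kept the call, against 2234 of all 3263 called genes. Differences between replicates 1 and 2 were only weakly correlated between groups (-0.105 to 0.0812). These values cannot tell whether libraries with the same replicate number were handled together. A replicate block gave 3289 TAC calls, 8 sham calls and 1873 interaction calls.

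Differences near 0 changed sign. Hmga2 was at 0.028 by TMM, 0.032 by RLE, 0.046 by edgeR and 0.052 by DESeq2, and Lyve1 at 0.028, 0.033, 0.068 and 0.075 in the same order. With 1 library left out, Acta1 ranged from -0.45 to 0.80, Ddx3y from -0.0055 to 0.63, H2-K1 from -0.037 to 0.49, Hmga2 from -0.20 to 0.097 and Lyve1 from -0.45 to 0.32. The list median ranged from -0.068 to 0.15 for hypertrophic signalling and from -0.48 to 0.0048 for Schwann cell markers. Without the 3 libraries with atrial transcripts, as without cKO TAC 2 alone, H2-K1 was at -0.037 and Hmga2 at 0.097. Lyve1 was then at 0.32 and the hypertrophic signalling median at -0.068. The cause was not tested. With 2 libraries a group, genes near the level of 3 reads, such as Arg1 in cKO TAC hearts, have imprecise folds.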
